A study of Mus musculus with 10 samples.

Results

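The 8 genes examined here encode the receptors that fibroblast growth factors (FGFs) bind and the proteins closest to them: the receptor tyrosine kinases Fgfr1, Fgfr2, Fgfr3 and Fgfr4, the kinase-less receptor Fgfrl1, the co-receptor Klb, and the docking adaptors Frs2 and Frs3. They were found as the non-control probes whose gene name in the scanner files equals one of these symbols, which gave 14 probes out of 55681 on the array, and 8 gene names out of 24185. All 10 arrays of the series were read. Of the 10, 4 hold wild-type germline stem (GS) cells, spermatogonia that self-renew in culture, which were first deprived of GDNF and FGF2 (3 days) and then kept for 24 hr with 100 ng/mL FGF5 (2 arrays) or without it (2 arrays). The other 6 hold GFRα1+ spermatogonia sorted from the testes of 2.5-month-old mice carrying a Gfrα1-GFP allele, on a WT background (3 arrays) or an Fgf5-/- background (3 arrays). The labels give the strain of all samples as C57BL/6, while the methods derive the GS cells from a C57BL/6 x ICR intercross. No source says whether samples of a group came from separate cultures or animals, or whether animals were pooled, so p-values measure only the spread between these samples.

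FGFs are secreted ligands that bind an FGFR together with heparan sulfate on the cell surface, which brings receptors together and switches on their kinase domains. The active receptor phosphorylates the docking proteins FRS2 and FRS3, which recruit GRB2 and SHP2 and so connect the receptor to RAS-ERK and PI3K signaling, while phospholipase Cγ binds the receptor directly. In the testis this route, with GDNF, keeps undifferentiated spermatogonia dividing.

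The probes of a receptor read different stretches of its transcripts, and these are shown first because they gave different results. Positions are those of the scanner files, in mouse build mm9. Exon and UTR annotation of that build was not used here. Both Fgfr2 probes lie on the minus strand of chromosome 7 and overlap by 42 of their 60 bases. A_55_P2094881 covers chr7:137307473-137307532 and A_51_P432403 covers chr7:137307455-137307514. The remaining 18 bases of each are the only sequence in which they differ, and both stretches have a GC content of 44.4%.
Fgfr2 A_55_P2094881, own 5′ end: atgccttatgaaccctgt
Fgfr2 A_51_P432403, own 3′ end: gtgaatgtgtcttcctgt

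The closest pair of probes of different receptors was Fgfr1 A_55_P1967022, at chr8:26684061-26684120 on the plus strand, and Fgfr4 A_55_P2121871, at chr13:55269212-55269271 on the plus strand. They share letters at 35 of 58 aligned bases (60.3%), in capitals here. The next highest count for probes of different genes is 27 of 56 bases.
Fgfr1 A_55_P1967022: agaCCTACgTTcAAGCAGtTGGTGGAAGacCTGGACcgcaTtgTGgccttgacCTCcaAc
Fgfr4 A_55_P2121871: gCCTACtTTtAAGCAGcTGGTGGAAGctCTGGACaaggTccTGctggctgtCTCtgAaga

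The 2 brighter Fgfr3 probes lie on the plus strand of chromosome 5. A_65_P06147 spans chr5:34077856-34078090, 235 genomic bases for a probe of 60, so its sequence crosses a gap in the genome. A_55_P1996578 covers chr5:34079649-34079708, further downstream, and its last 30 bases hold the polyadenylation hexamer AATAAA (capitals), which is in 10.1% of all probes on the array.
Fgfr3 A_65_P06147: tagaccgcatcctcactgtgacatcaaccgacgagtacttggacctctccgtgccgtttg
Fgfr3 A_55_P1996578, last 30 bases: ttactttccaaaaAATAAAgagataactgg

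Fgfr1 A_55_P1967015 covers chr8:26685820-26685879 on the plus strand, and 90% of its bases are T or G. Its last 30 bases are printed because 1 array read this probe unlike the others.
Fgfr1 A_55_P1967015, last 30 bases: ttgtttgtttggttggttggttggtctttt

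Signals are given on the log2 scale after subtraction of each array's 75th percentile, so that 0 is that percentile and 1 unit is a factor of 2. Levels of different probes are not compared with each other. The scanner software marks whether a spot is well above background, and 0 spots were saturated. The 75th percentile lay between 575 and 650 scanner units on the GS cell arrays and between 794 and 1091 on the sorted arrays. The share of probes marked so ran from 62.9% to 65.2% in GS cells and from 55.3% to 65.9% in sorted cells, the highest share being on the array of Fgf5-/- replicate 1. The germ cell markers (4 of 4) and the markers of undifferentiated spermatogonia (10 of 10) were well above background on every array. The Fgf5 probe was at background on all 3 WT arrays and well above it on 1 of 3 Fgf5-/- arrays, replicate 1 (log2 -3.42, against -6.83 and -6.90 on the other two), so it could not check the genotype labels. Readouts of FGF signaling were high on both arrays with FGF5. Dusp6, an ERK phosphatase, read 2.26 and 4.06 with FGF5 and -1.33 and -1.53 without it, and the transcription factor Etv5 read 3.05 and 4.32 against 0.51 and -0.99, although neither passed the adjusted threshold (limma adjusted p = 0.9999).

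Fgfr1, the receptor with the broadest tissue distribution in its family, was read by 3 probes that were well above background on all 10 arrays. Probe A_55_P2057777, at chr8:26685072-26685131 on the plus strand, read 3.82 and 3.87 in GS cells with FGF5, 3.74 and 3.90 without FGF5, 3.56, 3.40 and 3.29 in WT GFRα1+ cells, and 3.49, 3.43 and 3.14 in Fgf5-/- cells. The 4 GS cell arrays were above the 6 sorted arrays, while the groups overlapped within each experiment. Probe A_55_P1967022 read 0.76 and 0.66 with FGF5, 0.70 and 0.80 without it, 0.13, 0.21 and 0.21 in WT, and 0.58, 0.21 and 0.18 in Fgf5-/- cells. Here too the GS cells were higher, and Fgf5-/- replicate 1 came closest to them.

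The third Fgfr1 probe, A_55_P1967015, read 1.05 and 1.08 with FGF5, 0.95 and 1.25 without it, -0.33, -0.19 and -0.41 in WT, and 1.44, -0.16 and -0.16 in Fgf5-/- cells. A single array, Fgf5-/- replicate 1, was above every other array, including those of the GS cells, and the other 5 sorted arrays were close together. Because of it the Fgf5-/- group was higher than WT by 0.68 ± 0.43 (SE, limma adjusted p = 0.761), the largest difference of the 11 probes tested there, and without that array the difference was 0.15 ± 0.09 (SE, adjusted p = 0.660). The other 2 Fgfr1 probes differed by -0.06 and 0.14 between the genotypes. The same array also had the highest share of probes above background and the Fgf5 signal given above, and the part of either in this value was not tested.

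Fgfr2, whose alternatively spliced forms bind different sets of FGFs, was read by the overlapping probes printed above. A_55_P2094881 read -1.55 and -1.57 with FGF5, -1.59 and -1.44 without it, -2.29, -2.30 and -2.76 in WT, and -2.26, -2.46 and -2.74 in Fgf5-/- cells. The GS cells were above all 6 sorted arrays, by 0.93 ± 0.14 (SE, limma adjusted p = 0.00048). A_51_P432403, printed as 10 spots on each array, read -4.14 and -4.29 with FGF5, -3.93 and -4.17 without it, -4.31, -4.38 and -4.59 in WT, and -4.28, -4.46 and -4.55 in Fgf5-/- cells. It was well above background on all 4 GS cell arrays and on 4 of 6 sorted arrays, and FGF5 replicate 2 lay just below the highest sorted array. Its spots differed within an array with an SD between 0.13 and 0.30, and the array value is their mean. GS and sorted cells differed by 0.30 ± 0.11 (SE, adjusted p = 0.042). This probe entered that test through the GS cell arrays alone, where it was higher, so the p-value is not support for that direction.

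Fgfr3, the receptor that restrains bone growth, had a probe that was lower in GS cells and another that was not. A_55_P1996578, the downstream probe, read 0.28 and -0.14 with FGF5, 0.40 and -0.02 without it, 1.03, 0.82 and 0.77 in WT, and 0.84, 0.66 and 0.76 in Fgf5-/- cells. All 4 GS cell arrays were below all 6 sorted arrays, by 0.68 ± 0.13 (SE, adjusted p = 0.0020). A_65_P06147 read -2.46 and -1.98 with FGF5, -2.31 and -2.38 without it, -2.52, -2.85 and -2.78 in WT, and -2.44, -2.25 and -2.65 in Fgf5-/- cells. These groups overlapped, and the GS cells differed by 0.30 ± 0.14 (SE, adjusted p = 0.081), which did not pass. The last probe, A_55_P2150422 at chr5:34074696-34074755 on the plus strand, was well above background on 1 of 10 arrays, FGF5 replicate 2 at -4.76. It read between -5.39 and -5.09 on the other GS cell arrays and between -7.18 and -5.15 on the sorted arrays, and was not tested.

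Fgfr4, which serves the endocrine FGFs in the liver with Klb, was read by 2 probes on the plus strand of chromosome 13. A_55_P2120055, at chr13:55270033-55270092, read -2.23 and -1.78 with FGF5, -2.35 and -1.42 without it, -2.19, -2.03 and -2.28 in WT, and -1.93, -2.22 and -2.49 in Fgf5-/- cells. The GS cell arrays lay on both sides of the sorted ones, and the difference of 0.25 ± 0.21 (SE, adjusted p = 0.313) did not pass. A_55_P2121871 read -2.83 and -3.10 with FGF5, -2.97 and -2.87 without it, -4.41, -3.92 and -4.62 in WT, and -4.19, -4.95 and -4.20 in Fgf5-/- cells. It was well above background on all 4 GS cell arrays and on 4 of 6 sorted arrays, and entered the test through the GS cell arrays alone. The GS cells were higher by 1.44 ± 0.20 (SE, adjusted p = 0.00032), a size that rests in part on sorted values at background and was 0.89 after normexp background correction and 0.97 after quantile normalization. Because the probe was chosen through the group where it is higher, this p-value is not support for that direction. This is the probe with the sequence closest to an Fgfr1 probe, and the part of that likeness in its signal was not tested.

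Fgfrl1, which binds FGFs but has no kinase domain, was read by A_55_P2152872 at chr5:109135855-109135914 on the plus strand. It read 2.75 and 2.36 with FGF5, 2.68 and 2.5 without it, 3.45, 3.25 and 3.34 in WT, and 3.21, 3.34 and 3.48 in Fgf5-/- cells. GS cells were lower on every array, by 0.77 ± 0.12 (SE, adjusted p = 0.00051). Klb, the co-receptor through which FGF21 and FGF15 act, was read by A_51_P464394 at chr5:65774926-65774985 on the plus strand. Its values were -3.83 and -2.98 with FGF5, -3.29 and -2.84 without it, -4.21, -4.09 and -3.90 in WT, and -4.35, -3.98 and -3.73 in Fgf5-/- cells. The means differed by 0.81 ± 0.20 (SE, adjusted p = 0.0074), higher in GS cells, although FGF5 replicate 1 lay among the sorted arrays. Fgfr3, Klb and Fgfrl1 share chromosome 5 with Fgf5, their probes lying 64.6, 32.9 and 10.4 Mb from its probe, and none of them differed between the genotypes past the threshold.

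Frs2, the main docking protein of the receptors, was read by A_52_P105138 at chr10:116507186-116507245 on the minus strand. It was the steadiest of the 8 genes, with 3.07 and 3.09 with FGF5, 3.15 and 3.13 without it, 3.28, 3.01 and 2.94 in WT, and 3.04, 3.01 and 3.04 in Fgf5-/- cells. GS and sorted cells overlapped and differed by 0.06, with a 95% interval from -0.17 to 0.28. Frs3, its relative, was read by A_55_P2020736 at chr17:47841145-47841204 on the plus strand. It gave -1.45 and -1.65 with FGF5, -1.20 and -1.20 without it, -2.36, -2.70 and -2.35 in WT, and -1.94, -2.09 and -2.37 in Fgf5-/- cells. All GS cell arrays were above all sorted arrays, by 0.93 ± 0.13 (SE, adjusted p = 0.00029).

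**Figure D1:**
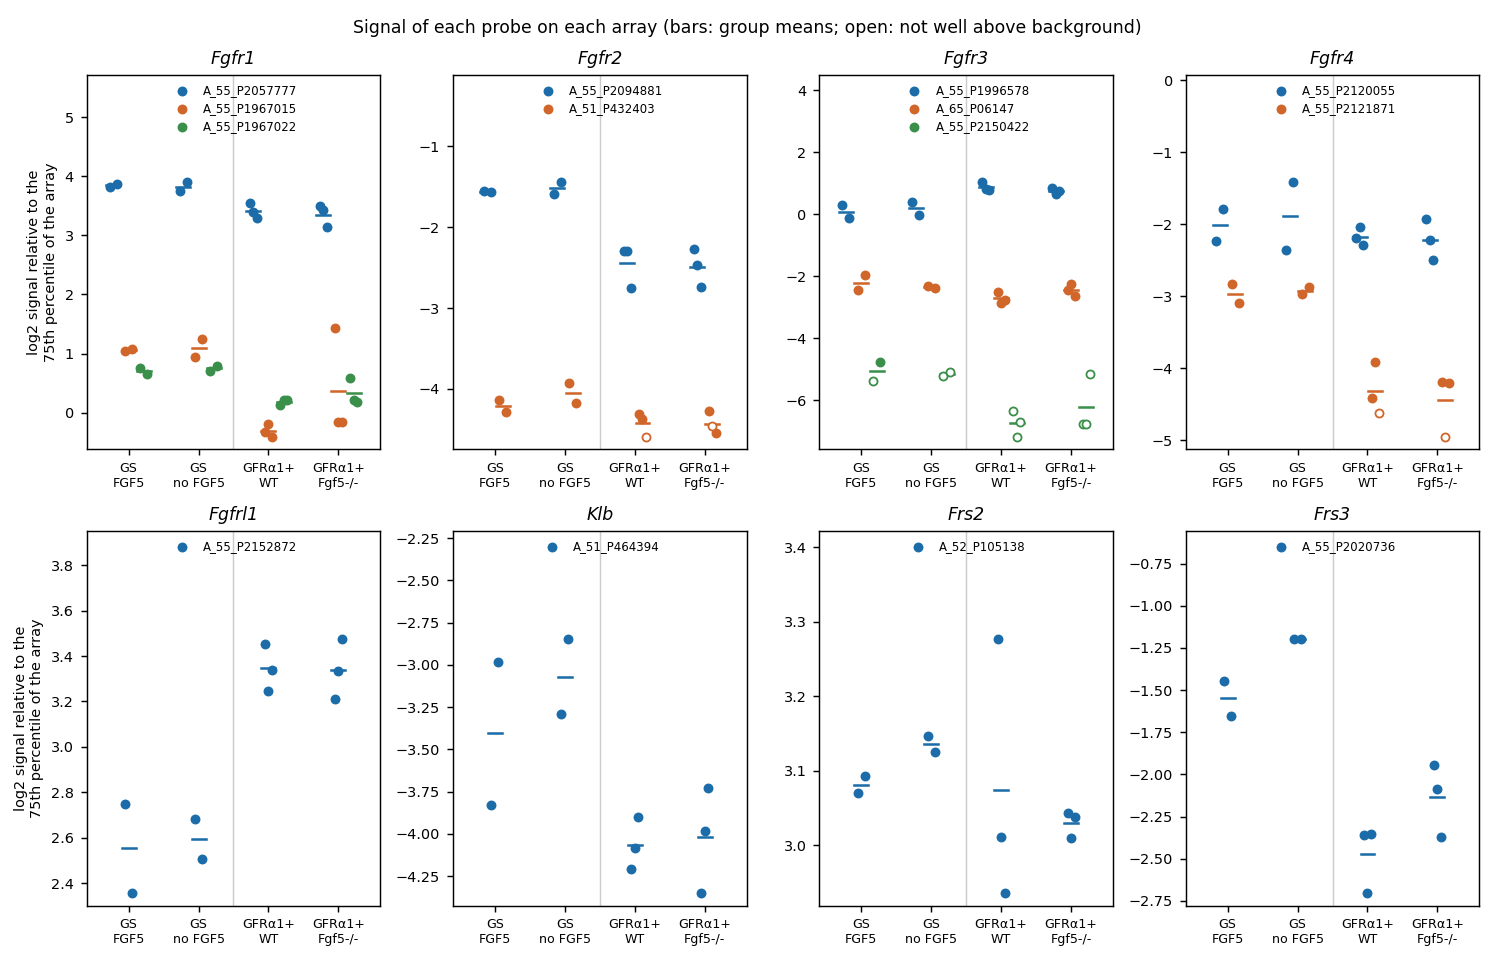
Log2 signal, minus each array's 75th percentile, of the 14 probes on the 10 arrays, with 1 panel per gene and 1 color per probe. Short bars are group means and open circles are arrays on which the probe was not well above background. Fgfrl1 and the Fgfr3 probe A_55_P1996578 are lower in GS cells, and Fgf5-/- replicate 1 stands apart at 1.44 for the Fgfr1 probe A_55_P1967015.

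The first comparison asks whether FGF5 changed the expression of its own receptors and adaptors in GS cells within 24 hr. With limma and Benjamini-Hochberg adjustment over 34612 tested probes, 0 of 13 probes of the 8 genes passed, as did 0 of all probes (0%). At an unadjusted p under 0.05 the counts were 0 of 13 and 882 of 34612 (2.55%). The differences, with minus without FGF5, ran from -0.35 ± 0.17 for Frs3 (SE, adjusted p = 0.9999) to 0.13 ± 0.22 for the Fgfr3 probe A_65_P06147, and 0 of 13 reached 2-fold, against 1.31% of all tested probes. Their median was -0.04, beside -0.03 over all tested probes. The 95% intervals limit most of these differences to less than 2-fold in either direction, the exceptions being Klb (-1.26 to 0.59) and Fgfr4 A_55_P2120055 (-1.11 to 0.86). Frs2 and Frs3 were lower on both arrays with FGF5 than on both without it, where 14.5% of all tested probes separated in this direction without overlap and 22.7% in either. The count of probes without overlap was 2 of 13. Leaving out an array leaves 1 array in a group, so counts of that kind are not given. Arrays with FGF5 lay in the second column of the slide and those without it in the first, so column and FGF5 cannot be told apart.

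The second comparison asks whether loss of Fgf5 changed these genes in GFRα1+ cells in vivo. Of the 11 probes tested, 0 passed, as did 0 of 30285 probes over the array (0%). At an unadjusted p under 0.05 the counts were 0 and 2055 (6.79%). The differences, Fgf5-/- minus WT, ran from -0.12 ± 0.12 for Fgfr3 A_55_P1996578 to 0.68 for the Fgfr1 probe described above, the next being 0.33 ± 0.16 for Frs3 (SE, adjusted p = 0.738). Their median was -0.01, beside -0.03 over all tested probes, and 0 of 11 reached 2-fold, against 0.941% of all. The groups did not overlap for 1 of 11, the Fgfr1 probe A_55_P1967015, which was higher in Fgf5-/- cells, against 7.01% of all tested probes in that direction and 16.2% in either. With an array left out this count was 1 to 3, at 2 without WT replicate 1 or Fgf5-/- replicate 1 and 3 without Fgf5-/- replicate 3. The share of all tested probes was not counted in those fits, so these counts have no background beside them. Fgfr2 A_51_P432403 and Fgfr4 A_55_P2121871 were not above background on every array of either genotype and were not tested, nor was Fgfr3 A_55_P2150422. WT arrays lay in the first row of the slide and Fgf5-/- arrays in the second, so row and genotype cannot be told apart.

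**Figure D2:**
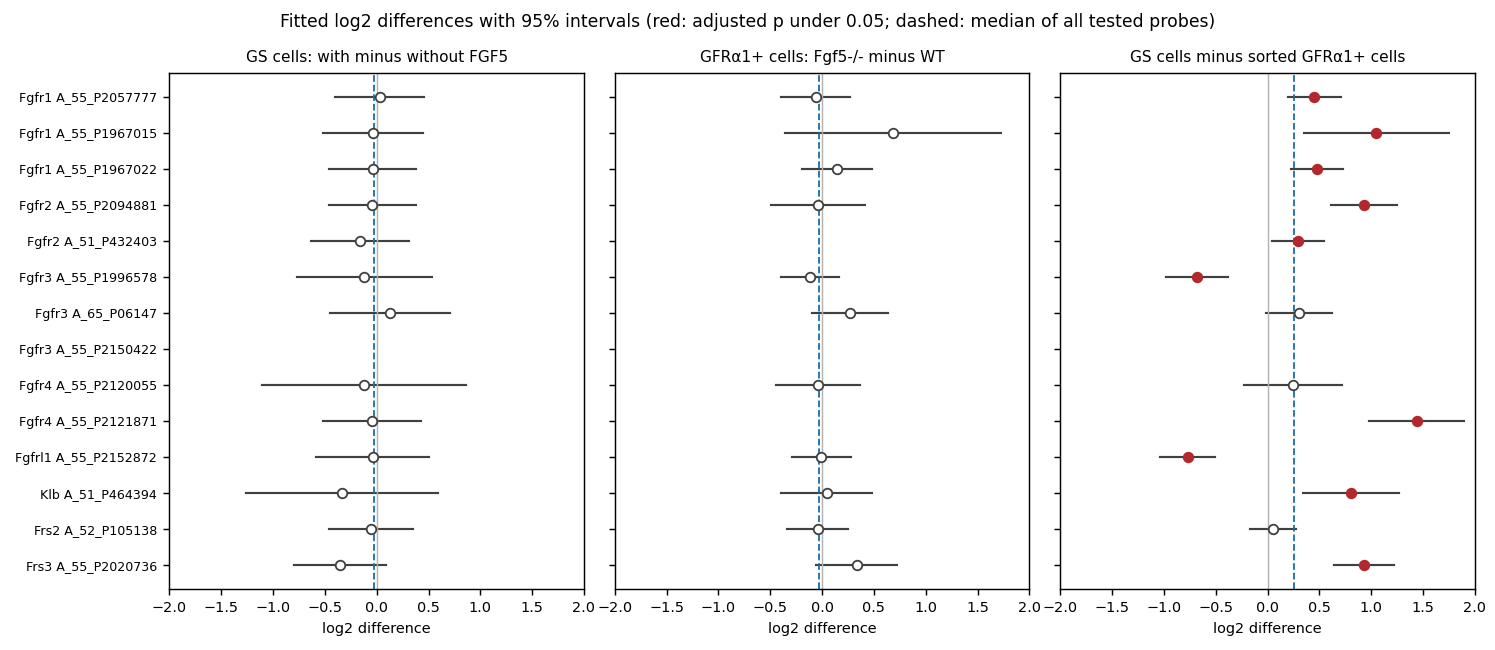
Fitted log2 differences of the probes (points) with 95% intervals (bars) in the 3 comparisons. Red points passed an adjusted p of 0.05, the dashed line is the median over all tested probes, and rows without a point were not tested. Red points appear in the panel of GS against sorted cells alone, 8 to the right of 0 and 2 to the left.

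The third comparison sets the level in GS cells against that in sorted GFRα1+ cells. Material, mouse cross, deprivation of GDNF and FGF2, slide and scan all change together between these arrays and cannot be told apart. The FGF readouts were lower in GS cells, Dusp6 by -3.64 ± 0.30 and Etv5 by -3.50 ± 0.32 (SE). The part of the deprivation in the receptor levels was not tested. Between bulk samples, fewer expressing cells and less RNA per cell cannot be told apart either. Of the 13 probes tested, 10 passed (76.9%), where 67.7% of all 35826 tested probes did. The 10 were 8 higher in GS cells (41.9% of all probes were) and 2 lower, Fgfr3 A_55_P1996578 and Fgfrl1 (25.7% of all were). The groups did not overlap for 7 of 13, against 55.7% of all, with 5 higher (34.7% of all) and 2 lower (21% of all). Of the 13, 2 reached 2-fold, Fgfr1 A_55_P1967015 (2.07-fold) and Fgfr4 A_55_P2121871, against 35.8% of all. Fgfr2 A_51_P432403 and Fgfr4 A_55_P2121871 were in these counts through the GS cell arrays alone, where they were higher. Among probes above background on every array, 8 of 11 passed, beside 17966 of 27224 over the array, and 1 of 11 reached 2-fold, beside 6912 of 27224.

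All tested probes were shifted upward in GS cells by a median of 0.26, a value that depends on the scaling of the arrays (0.13 after quantile normalization, 0.39 with the percentile taken over probes above background), so the differences were also read relative to it. On that scale Fgfrl1 was at -1.03 and Fgfr3 A_55_P1996578 at -0.94, and both stayed below the median under all 5 scalings. The percentile over probes above background and the authors' deposited values differ from the main scaling by a constant for each array. Such a constant cancels on this scale, so only quantile normalization and normexp are separate checks. Above the median under all 5 were Fgfr4 A_55_P2121871 (1.18), Fgfr1 A_55_P1967015 (0.79), Fgfr2 A_55_P2094881 (0.67), Frs3 (0.67), Klb (0.55), Fgfr1 A_55_P1967022 (0.22) and Fgfr1 A_55_P2057777 (0.19). The Fgfr4 value rests in part on sorted values at background, and that probe was tested through the GS cell arrays alone. The other 4 probes, Fgfr2 A_51_P432403 (0.04), Fgfr3 A_65_P06147 (0.04), Fgfr4 A_55_P2120055 (-0.01) and Frs2 (-0.20), changed side with the scaling. Among all tested probes, 14.7% lay below Fgfrl1 and 16.7% below Fgfr3 A_55_P1996578.

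**Figure D3:**
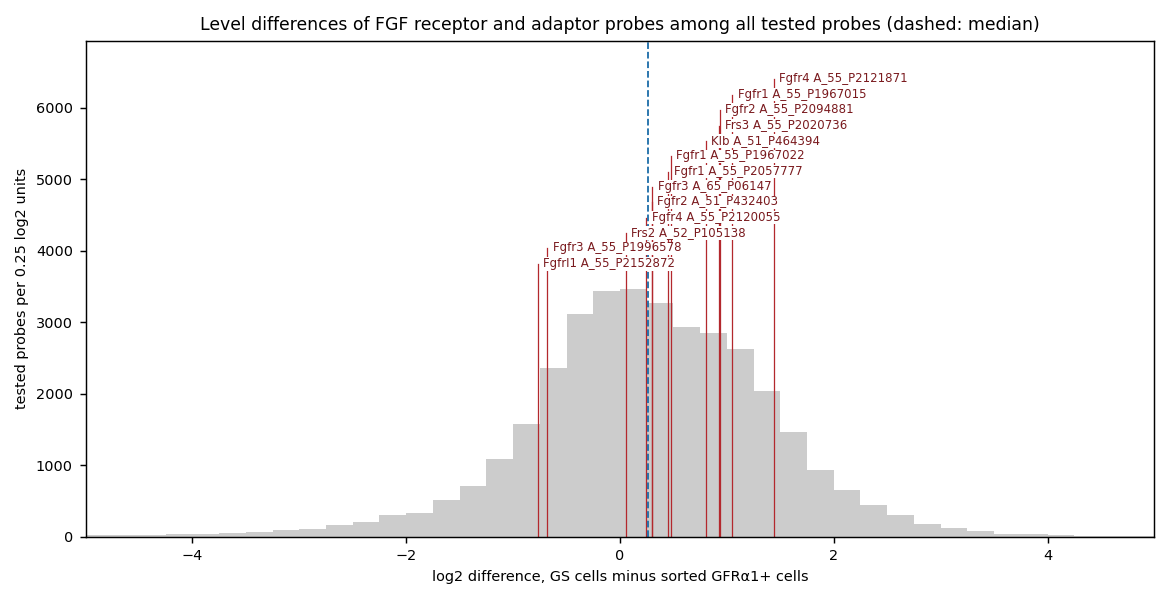
Histogram of the log2 difference between GS cells and sorted GFRα1+ cells over all tested probes, in bins of 0.25 log2 units, with the 13 probes of the receptors, Klb and the adaptors marked by vertical lines. The axis is limited to differences between -5 and 5. The dashed line is the median, and all marked probes lie between -0.77 and 1.44, within the bulk of the distribution.

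Markers of other cells also had different levels in the 2 materials. Levels were summed over each list on the linear scale, in units of the array's 75th percentile. Counts of markers higher or lower are those past the adjusted threshold. Of all tested probes 67.7% passed, with 41.9% higher in GS cells and 25.7% lower, and the counts here and in the next paragraph stand beside these shares. The fibroblast and feeder cell markers (8 of 10 above background in GS cells, 6 to 9 in sorted cells) gave 6.39 to 16.2 in GS cells and 5.13 to 6.63 in sorted cells, with Lum and Pdgfrb at background on all GS cell arrays. Of 9 tested, 4 were higher in GS cells and 3 lower. The Sertoli cell markers (4 to 6 of 8, 5 to 6 of 8) gave 2.02 to 2.47 and 4.26 to 8.41, with Amh and Fshr at background on every array. Of 6 tested, 1 was higher in GS cells and 4 were lower. The Leydig cell markers (2 to 3 of 4, 2 of 4) gave 4.98 to 6.65 and 0.417 to 1.95, with Cyp11a1 at background on every array. Of 2 tested, 2 were higher in GS cells.

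The macrophage markers (2 of 3 in both) gave 3.26 to 4.13 and 0.751 to 1.73, with Lyz2 at background on every array. Of 2 tested, 2 were higher in GS cells (41.9% of all tested probes were). The peritubular myoid cell markers (2 to 4 of 4, 2 to 3 of 4) gave 0.405 to 0.690 and 0.197 to 0.273, and Des was at background on all sorted arrays. Of 3 tested, 2 were higher in GS cells and 1 was lower. The endothelial markers (2 to 3 of 4, 4 of 4) gave 8.07 to 9.66 and 2.38 to 4.64, with Tek at background on all GS cell arrays. They went in opposite directions, with Pecam1 (1.05) and Kdr (1.43) higher in GS cells and Cdh5 (-2.35) and Tek (-3.00) lower. Among germ cells, the markers of undifferentiated spermatogonia gave 116 to 127 and 134 to 168, those of differentiating spermatogonia (4 of 4) 74.8 to 97.7 and 139 to 167, those of spermatocytes and spermatids (4 to 5 of 6, 5 of 6) 10.3 to 15.7 and 16.1 to 25.2, and the general germ cell markers 158 to 178 and 126 to 149. Of the 10 undifferentiated markers, 2 were higher in GS cells and 7 lower. Their median difference was -1.52, with a range from -3.50 (Etv5) to 0.58 (Nanos3). Lower in GS cells were also 3 of 4 differentiating markers and 4 of 5 tested spermatocyte and spermatid markers, with 0 higher. Of the 4 general germ cell markers, 1 was higher and 0 lower. The part of these cells in the receptor levels was not tested.

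The disagreement between probes of a receptor was then tested on the difference between 2 probes on the same array, which does not depend on the shift of the array. That probes of a receptor disagree was known from earlier results of these arrays. The p-values therefore only rank the observed grouping of arrays among all possible groupings, and are not independent support for the disagreement. The test was an exact permutation test over the 10 arrays, two-sided, with 210 splits and a smallest possible p of 0.0048. Of the 3 pairs well above background on all arrays, that of Fgfr3 (A_55_P1996578 minus A_65_P06147) was 2.41 ± 0.42 (SD, n = 4) in GS cells and 3.40 ± 0.27 (SD, n = 6) in sorted cells, without overlap, a change of -0.98 (exact permutation p = 0.0048, adjusted over 3 pairs 0.0143). The Fgfr1 pair A_55_P2057777 minus A_55_P1967022 was 3.11 ± 0.08 and 3.13 ± 0.19 (exact permutation p = 0.833). The Fgfr1 pair A_55_P2057777 minus A_55_P1967015 was 2.75 ± 0.07 in GS cells and 3.35 ± 0.66 in sorted cells (exact permutation p = 0.105, adjusted 0.157), where Fgf5-/- replicate 1 alone, at 2.06, lay below the GS cells. Without that array the change was -0.86, an alternative added after the values were seen. The array was picked for its value, so no p-value is given.

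The Fgfr2 and Fgfr4 pairs each hold a probe at background on 2 of 6 sorted arrays, which was above background on every array only in GS cells, where it was higher. Their differences are therefore given as values without a test. The Fgfr2 pair (A_55_P2094881 minus A_51_P432403) was 2.59 ± 0.18 (SD, n = 4) in GS cells and 1.96 ± 0.11 (SD, n = 6) in sorted cells, a change of 0.64. These are the probes that differ in the 18-base ends printed above. The Fgfr4 pair (A_55_P2120055 minus A_55_P2121871) was 1.0 ± 0.45 and 2.19 ± 0.36, a change of -1.19. In alternatives added after the values were seen, the changes after normexp background correction were 0.45 for Fgfr2, -0.90 for Fgfr3 and -0.60 for Fgfr4, and after quantile normalization 0.91, -0.63 and -1.01. The part of signal close to background in the Fgfr2 and Fgfr4 values was not tested.

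**Figure D4:**
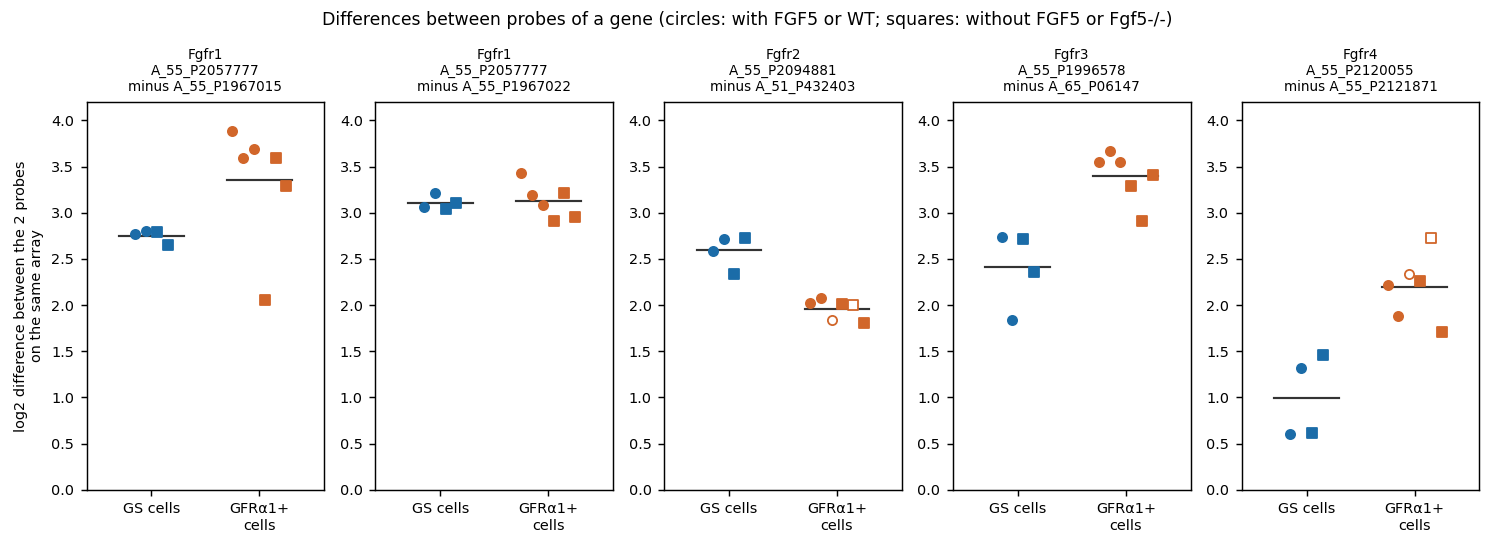
Difference in log2 signal between 2 probes of the same receptor on the same array, for 5 pairs, in GS cells (blue) and sorted GFRα1+ cells (orange). Circles are arrays with FGF5 or WT, squares arrays without FGF5 or Fgf5-/-, horizontal lines the means, and open symbols arrays on which a probe was not well above background. The GS and sorted arrays do not overlap for Fgfr2, Fgfr3 and Fgfr4, and the orange square at 2.06 in the first panel is Fgf5-/- replicate 1.

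Partners of the receptors were read from the brightest probe of each gene. Of 9 receptor partners and co-receptors, 6 were tested, and between GS and sorted cells 1 was higher and 2 were lower, or 3 of 6 past the threshold where 67.7% of all tested probes were (41.9% higher, 25.7% lower). The one higher was Flrt2, an FGFR-binding membrane protein, by 1.74 ± 0.17 (SE, adjusted p = 5.5e-05). The lower ones were Il17rd, an inhibitor of FGF signaling also called Sef, by -0.91 ± 0.13 (adjusted p = 0.00035), and the adhesion molecule Ncam1, by -0.69 ± 0.13 (adjusted p = 0.0013).

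Of 15 docking, adaptor and effector genes downstream of the receptors, 14 were tested, of which 2 were higher in GS cells (41.9% of all tested probes were), 9 lower (25.7% of all) and 3 not past the threshold (67.7% of all passed). Their median difference was -0.50, beside 0.26 over all tested probes. The higher ones were Sos2, a RAS exchange factor (0.91 ± 0.10, adjusted p = 0.00011), and the adaptor Crk (0.28 ± 0.09, adjusted p = 0.020). The lowest were Pik3r1, the regulatory subunit of PI3K (-2.83 ± 0.10, adjusted p = 5.4e-07), and Grb14, an adaptor that inhibits receptor kinases (-1.63 ± 0.27, adjusted p = 0.00087). In these lists 0 genes passed in either of the other 2 comparisons with limma. The splicing factors Esrp1 and Esrp2 set which ligand-binding exon Fgfr2 uses. Esrp1 read -0.06 and 1.56 with FGF5, -0.52 and 0.49 without it, and between 3.62 and 3.91 on the 6 sorted arrays. All GS cell arrays were far below the sorted ones, a difference of -3.42 ± 0.31 (SE, adjusted p = 3.8e-05). Esrp2 was at background on 2 of 6 sorted arrays and entered the test through the GS cell arrays alone. It was higher in GS cells by 0.63 ± 0.24 (adjusted p = 0.043), a size that rests in part on sorted values at background. For the same reason the p-value is not support for that direction. None of the Fgfr2 probes was tied to either exon here.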

How the data were processed

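Total RNA was labeled with Cy3 and hybridized to Agilent whole mouse genome 8x60K arrays, 1 color and 1 array per sample. The labeling reaction starts at poly(A) tails, so a probe far from the 3′ end can read less target. The authors deposited scanner intensities per spot, background-subtracted by Feature Extraction (10.7.1.1 per the file headers, 10.7.3.1 in the submitters' processing notes). The authors also deposited log2 values, made with a floor of 1 and a shift to the 75th percentile without baseline transformation. Their column medians lie between -3.74 and -3.10, and they differ from the values used here by a constant for each array (0.13 to 0.20, within 1.82e-06). These constants are larger for sorted arrays, and how their percentile was taken is not given in the sources used here.

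Here the floor (0 signals under 1) and the shift were applied to 59305 non-control spots of 55681 probes. Spots flagged as uneven or as population outliers (117 to 205 per array) were left out and spots of a probe averaged. A probe counts as well above background when at least 0.5 of its spots are. A probe was tested if all arrays of some group had it above background. The test was limma 3.58.1 (lmFit, eBayes, two-sided, Benjamini-Hochberg, threshold 0.05) in R 4.3.3 with the data.table package (1.17.8), each experiment on its own and all 10 arrays for GS against sorted cells. The fit was also run on simulated arrays whose noise is independent between arrays. These hold no shared slide or replicate effect, so that run cannot address such effects. The accessions of 13 of 14 probes matched RefSeq genes of GRCm38.p6, with the same symbol. The number of arrays limits the precision. All probes of the 8 genes are named, with Fgf5, Dusp6 and Etv5, and the 2 largest differences in each direction per pathway list. Members and lists were chosen with earlier results of these data known. Alternatives changed the normalization, background correction, filter, outlier spots, variance trend, replicate block and arrays used. Other scalings and left-out arrays for the probe pairs, and reading levels relative to the median probe, were added after seeing the data. Pathway and marker genes were read from their brightest probe.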

Additional observations from a re-analysis of the deposited data

How the results depend on the processing

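Counts of the receptor, Klb and adaptor probes past the adjusted threshold stayed at 0 in both experiments under every alternative run, and between 8 and 11 for GS against sorted cells, with 8 in cells without FGF5 against WT cells alone. The count past 2-fold there was 2, and became 1 after quantile normalization, normexp, in the authors' table or with probes above background on every array, 4 with the percentile over probes above background, and 1 to 4 with an array left out. Over all probes, Fgf5-/- against WT gave 0 to 6 calls with an array left out, 6 without Fgf5-/- replicate 1, 5 without Fgf5-/- replicate 3 and 1 without WT replicate 2 or 3. The cause was not tested.

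The replicate number as a block gave 0 calls in both experiments and changed no call. Probes at an unadjusted p under 0.05 went from 882 to 2481 with FGF5 and from 2055 to 1561 for Fgf5-/-. Same-numbered arrays deviated together in GS cells (r = 0.64 for both pairs, fixed by 2 against 2) and not in sorted cells (-0.42, -0.16 and -0.15), and no array there correlated best with its own number.

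Differences that did not pass changed sign as follows. After quantile normalization, Fgfr4 A_55_P2121871 became 0.0035 with FGF5. For Fgf5-/- against WT, quantile normalization gave Fgfr1 A_55_P2057777 0.034, Fgfrl1 0.082 and Frs2 0.024, normexp gave Fgfrl1 0.057, and the percentile over probes above background gave Fgfr2 A_55_P2094881 0.017, Fgfr4 A_55_P2120055 0.016, Fgfrl1 0.051 and Frs2 0.013. For GS against sorted cells, quantile normalization turned Fgfr2 A_51_P432403 (-0.24), Fgfr3 A_65_P06147 (-0.034) and Fgfr4 A_55_P2120055 (-0.041), of which the first had passed.

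With an array left out, the FGF5 differences ran from -0.0499 to 0.104 (Fgfr1 A_55_P2057777), -0.19 to 0.11 (Fgfr1 A_55_P1967015), -0.0911 to 0.0127 (Fgfr1 A_55_P1967022), -0.113 to 0.0304 (Fgfr2 A_55_P2094881), -0.331 to 0.0895 (Fgfr3 A_55_P1996578), -0.11 to 0.37 (Fgfr3 A_65_P06147), -0.59 to 0.34 (Fgfr4 A_55_P2120055), -0.18 to 0.0906 (Fgfr4 A_55_P2121871), -0.24 to 0.16 (Fgfrl1) and -0.76 to 0.0872 (Klb). Those of Fgf5-/- against WT ran from -0.133 to 0.0454 (Fgfr1 A_55_P2057777), -0.195 to 0.0846 (Fgfr2 A_55_P2094881), -0.18 to 0.10 (Fgfr4 A_55_P2120055), -0.0745 to 0.0593 (Fgfrl1), -0.10 to 0.21 (Klb) and -0.11 to 0.06 (Frs2). For the probe pairs, the change ran from -0.86 (without Fgf5-/- replicate 1) to -0.49 for Fgfr1 A_55_P1967015. It ran from -0.069 to 0.0355 for Fgfr1 A_55_P1967022, which became 0.108 after quantile normalization (exact permutation p = 0.2286).

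Of the calls between GS and sorted cells, Fgfr2 A_51_P432403 was the least stable, losing its call in 7 of 10 fits with an array left out (adjusted p up to 0.143). In the 8 alternatives with no array left out that tested this probe, it lost its call in 5 and changed sign in 1. Klb lost its call after quantile normalization (0.36, adjusted p = 0.21). Fgfr1 A_55_P2057777 lost its call in 1 of 9 such alternatives (adjusted p up to 0.054). Without GS cells without FGF5 replicate 2, which leaves 1 array in that group, Fgfr1 A_55_P1967015 missed the threshold. Fgfr3 A_65_P06147 passed after normexp (adjusted p = 0.019) and with the percentile over probes above background (adjusted p = 0.019). With an array left out its difference ran from 0.18 to 0.42, and that of Fgfr4 A_55_P2120055 from 0.01 to 0.48. Whether either probe passed then depended on the array left out. Signal close to background limits Fgfr2 A_51_P432403, Fgfr4 A_55_P2121871 and Fgfr3 A_55_P2150422.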

Other observations

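The named genes whose profile over the 10 arrays was most like that of a receptor were found by the root mean square difference of log2 values centered on their own mean, among 19781 named probes above background on all arrays. For Fgfr2 A_55_P2094881 these were 9530036O11Rik (0.116) and Dmpk (0.118). For Fgfr3 A_55_P1996578 they were Rrp1 (0.0758) and Pi4ka (0.0839). For Fgfr4 A_55_P2120055 they were Whsc1l1 (0.115) and Erg (0.118). The brightest Fgfr1 probe spanned 0.76 log2 units over the arrays, under the 1 unit set for this search, and none was sought.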
